A study of Rattus norvegicus with 16 samples.

Results

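The 7 Hox genes described here are Hoxa5, Hoxa7, Hoxa9, Hoxa10 and Hoxa11 of the A cluster and Hoxc4 and Hoxc9 of the C cluster, measured in an eye muscle and a limb muscle of the rat. They are the Hox genes of these clusters that the array measured well in muscle, taken by the gene symbol of the array annotation, and they account for 8 of the 31099 probe sets on the array and for 7 of the 10416 genes that passed a filter on low values. RNA was taken from 4 rats, numbered 15, 25, 27 and 29 in the sample titles, and 1 array was made from each rat for each of 4 groups. The groups are the neuromuscular junction of the rectus extraocular muscles (EOM_synapse), fibre of the same muscles away from the junction (EOM_fiber), the junction of tibialis anterior, a limb muscle of the lower leg (TA_synapse), and fibre of that muscle away from the junction (TA_fiber). All tissue came from animals with no stated treatment or allele, and the labels used here give no strain, sex or age. Junctions were found by a stain for acetylcholinesterase and cut from 10 µm frozen sections by laser, about 1000 for each muscle, with an equal amount of fibre. A captured piece holds the fibre together with whatever lies against it, so nerve ending, glia, vessel and connective tissue cells can be part of the sample.

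Hox genes encode homeodomain transcription factors. They lie in clusters in which the order of the genes along the chromosome follows the order of their domains along the body axis, low-numbered genes acting towards the head and high-numbered genes towards the tail and, in the A and D clusters, towards the tip of the limb. Limb muscle derives from somites, which carry a Hox code, whereas the eye muscles derive from head mesoderm lying in front of the Hox domains. Hox proteins bind DNA together with Pbx, Meis and Pknox partners. Their genes are switched on in part by retinoic acid and are kept active or silent by Trithorax and Polycomb group proteins.

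Marker genes separated the arrays by their labelled muscle and region. Myh13, the extraocular myosin heavy chain, had deposited intensities of 8049 to 38022 on the 8 EOM arrays and of 3.66 to 52.4 on the 8 TA arrays, and Ckm, the muscle creatine kinase, was at least 16832 on all 16. Chrne, the adult subunit of the acetylcholine receptor, lay at 2115 to 2621 in EOM_synapse and 3.48 to 50.8 in EOM_fiber, and at 904 to 1656 in TA_synapse and 2.64 to 6.99 in TA_fiber. The median intensity of an array was 33.43 to 57.04. Arrays have no read depth, and their number limits the precision of every value below.

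Among the members of the A cluster, Hoxa5, Hoxa9 and Hoxa10 stood at percentiles 82.2 to 95.7 of their own array on the 8 TA arrays and at 1.15 to 45.1 on the 8 EOM arrays, while Hoxa7 and Hoxa11 were dimmer in TA and overlapped between the muscles. Deposited intensities are given below in the order of rats 15, 25, 27 and 29. Hoxa5, which in the mouse patterns the skeleton at the level of the neck and shoulder, had 3.47, 5.97, 25.9 and 2.18 in EOM_synapse and 37.3, 5.72, 38.0 and 3.19 in EOM_fiber. In limb muscle it had 425, 787, 866 and 235 in TA_synapse and 291, 777, 536 and 215 in TA_fiber. Every TA array lay above every EOM array. Among the limb samples rat 29 was lowest in both regions, and the highest rat was 3.68 times the lowest in TA_synapse and 3.62 times in TA_fiber.

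Hoxa9 and Hoxa10 belong to neighbouring paralog groups that in the mouse pattern the trunk and, with their D cluster counterparts, the segments of the limb, and both have also been studied in muscle stem cells of the mouse. Hoxa9 had 2.70, 2.14, 4.59 and 26.8 in EOM_synapse and 6.98, 1.56, 1.44 and 4.46 in EOM_fiber. In limb muscle it had 881, 1135, 498 and 727 in TA_synapse and 561, 733, 445 and 683 in TA_fiber. Every TA array lay above every EOM array, and in both regions of TA rat 25 was highest and rat 27 lowest. Hoxa10 had 2.65, 1.93, 14.5 and 1.14 in EOM_synapse and 16.3, 13.0, 1.84 and 3.96 in EOM_fiber. Its TA values were 991, 1167, 401 and 507 in TA_synapse and 615, 643, 612 and 557 in TA_fiber. Here too every TA array lay above every EOM array. The rats lay closer together in TA_fiber, where the highest was 1.15 times the lowest, than in TA_synapse, where it was 2.91 times. Within its own array the Hoxa9 probe set stood at percentiles 1.95 to 36.2 in EOM and 89.7 to 95.6 in TA, and that of Hoxa10 at 1.15 to 29.1 in EOM and 89.1 to 95.7 in TA.

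**Figure D1:**
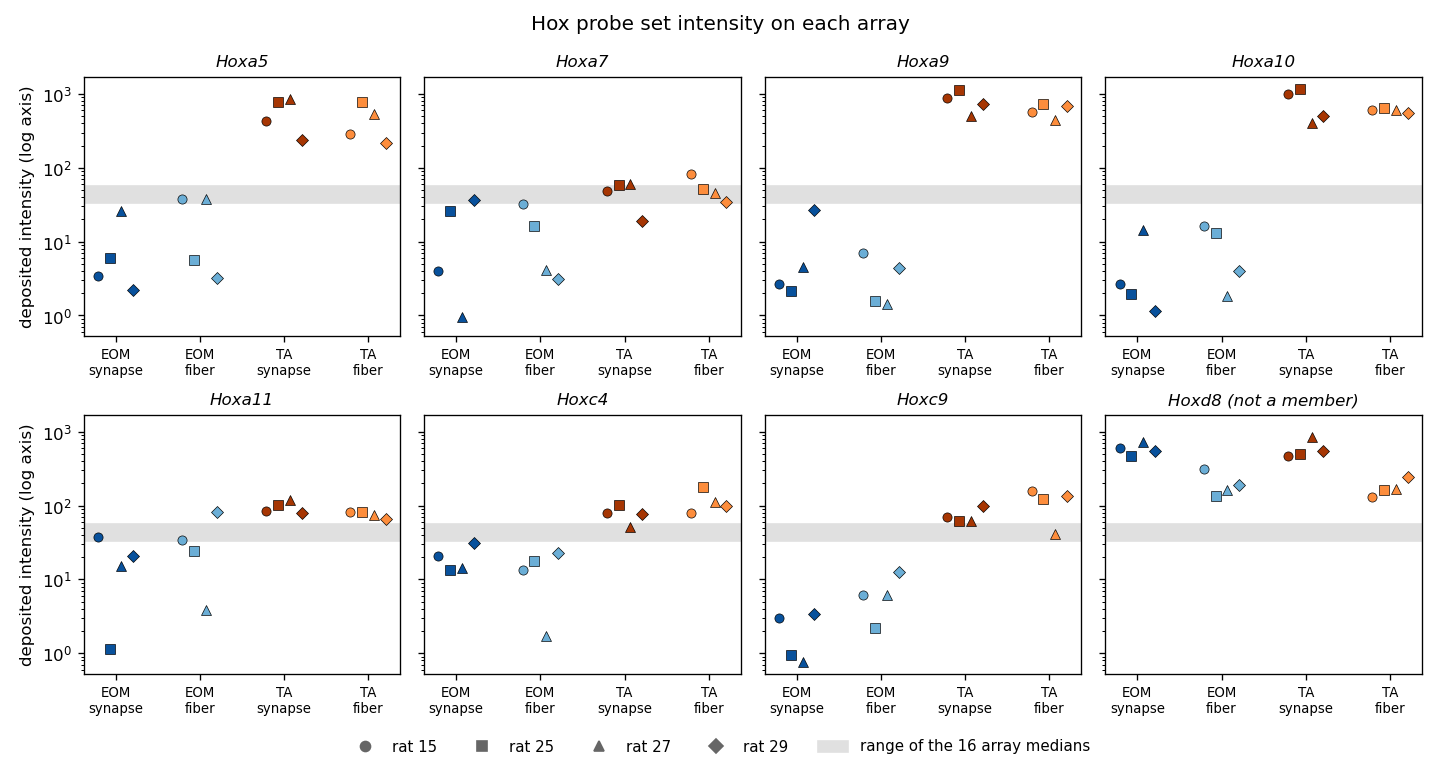
Deposited intensity (log axis) of the probe set that stands for each of the 7 Hox members and for Hoxd8, which is no member, on each of the 16 arrays. Columns are EOM_synapse, EOM_fiber, TA_synapse and TA_fiber, symbols are the 4 rats and the grey band spans the 16 array medians (33.43 to 57.04); for Hoxa5, Hoxa9, Hoxa10, Hoxc4 and Hoxc9 every TA point lies above every EOM point, while the Hoxd8 points of EOM and TA cover the same range.

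Hoxa9 and Hoxa10 are adjacent in the A cluster, and the regions around their start sites are shown because the pair had the most alike values within limb muscle. Over the 8 TA arrays the log2 values of Hoxa9 and Hoxa10, each centred on its own mean, differed by a root mean square of 0.27, the smallest of the 21 pairs of members. The sequences are from RefSeq on build GRCr8 and run from 250 bases before to 50 after an annotated start, and 5 of the 7 members matched an entry in the promoter table, with 6 windows. Capitals mark TATAAA or CACGTG, on either strand, so that TATAAA also appears as TTTATA.
Hoxa9, chr4:82656999-82657298, minus strand: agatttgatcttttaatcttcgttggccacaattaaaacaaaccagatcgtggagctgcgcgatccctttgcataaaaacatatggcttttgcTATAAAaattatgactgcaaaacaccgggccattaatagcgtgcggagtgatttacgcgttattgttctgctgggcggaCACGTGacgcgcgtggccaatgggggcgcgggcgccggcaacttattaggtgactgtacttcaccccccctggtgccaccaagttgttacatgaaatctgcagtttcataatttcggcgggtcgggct
Hoxa10, chr4:82671441-82671740, minus strand: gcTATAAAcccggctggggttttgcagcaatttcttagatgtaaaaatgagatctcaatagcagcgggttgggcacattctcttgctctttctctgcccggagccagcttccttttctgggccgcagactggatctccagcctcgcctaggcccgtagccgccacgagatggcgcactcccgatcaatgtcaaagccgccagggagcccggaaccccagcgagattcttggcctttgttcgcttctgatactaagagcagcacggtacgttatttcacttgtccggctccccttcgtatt
Hoxa10, second start, chr4:82665873-82666172, minus strand: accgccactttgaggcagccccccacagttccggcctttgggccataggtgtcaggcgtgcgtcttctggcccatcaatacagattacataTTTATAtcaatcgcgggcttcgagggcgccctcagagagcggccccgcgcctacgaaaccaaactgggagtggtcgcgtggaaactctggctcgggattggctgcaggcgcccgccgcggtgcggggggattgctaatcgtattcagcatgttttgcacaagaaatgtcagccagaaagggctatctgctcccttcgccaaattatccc
Over all 33469 windows of the table, 14.2% held TATAAA and 6.42% CACGTG on either strand. TGATTNAT, a joint site of Hox and Pbx proteins, and TAATTA, a homeodomain core, occur in 3.18% and 5.36% of all windows and were in none of the 6 windows of members, which says only that these letters are not in these windows. The GC content of the members' windows was 49.0 to 64.3%, against a median of 51.7% over all windows.

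Hoxa11 and Hoxa7 were the members whose EOM and TA arrays overlapped. Hoxa11, which in the mouse shapes the forearm and lower leg, had 37.7, 1.15, 15.3 and 21.1 in EOM_synapse and 34.5, 24.2, 3.87 and 81.3 in EOM_fiber. In limb muscle it had 85.5, 101, 119 and 78.8 in TA_synapse and 82.3, 82.5, 74.5 and 64.9 in TA_fiber. The EOM_fiber array of rat 29 was the only EOM array above the lowest TA value, and it was also the only EOM array on which any probe set standing for a member lay above the array's median. The symbol of this probe set rests on the annotation of the array alone, since its gene identifier is absent from the gene table used for names.

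Hoxa7, which in the mouse acts on the thoracic skeleton, had 3.98, 26.2, 0.942 and 36.3 in EOM_synapse and 31.9, 16.1, 4.16 and 3.11 in EOM_fiber. It had 48.0, 59.3, 60.0 and 19.2 in TA_synapse and 83.6, 52.2, 45.8 and 34.05 in TA_fiber. At the junction 1 TA array, that of rat 29, lay below 2 of the 4 EOM arrays, while in fibre the groups did not overlap. On 9 of the 16 arrays, all 8 from EOM and that TA_synapse array, the probe set was below the array's median.

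The C cluster members also separated by muscle, Hoxc4 by the probe set that stands for it. Hoxc9, which acts at the thoracic level and, in mouse and chick, in motor neurons of the trunk, had 3.0, 0.936, 0.757 and 3.42 in EOM_synapse and 6.14, 2.17, 6.11 and 12.7 in EOM_fiber. It had 69.8, 61.9, 60.9 and 98.2 in TA_synapse and 157, 122, 41.4 and 134 in TA_fiber. Every TA array lay above every EOM array, the lowest being TA_fiber of rat 27. Hoxc4, a gene of the neck region, had 20.6, 13.5, 14.1 and 31.1 in EOM_synapse and 13.6, 17.9, 1.70 and 22.5 in EOM_fiber. It had 78.2, 103, 51.1 and 76.5 in TA_synapse and 78.6, 181, 110.4 and 97.9 in TA_fiber, every TA array again above every EOM array.

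Hoxc4 is measured by a second probe set, which disagreed with the first. It gave 3.68 to 55.3 in EOM and 1.96 to 32.7 in TA, lay above the array's median on 2 arrays, both of EOM_synapse, and did not pass the filter. On the scale of log2(intensity + 16), quantile normalized, its means were 5.49 in EOM_synapse and 5.13 in EOM_fiber, above the 4.65 in TA_synapse and 4.53 in TA_fiber. The values of Hoxc4 given elsewhere are those of the first probe set, chosen by its higher mean over all arrays. That probe set was the brighter one in TA but the dimmer one in EOM, with means of 5.12 in EOM_synapse and 4.81 in EOM_fiber. No other member has more than 1 probe set.

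The differences between the muscles are a description, because the members were chosen by how they were measured in muscle and none of them would have passed the filter on its EOM arrays. On the scale used for all differences, quantile-normalized log2(intensity + 16), EOM_synapse minus TA_synapse was -4.41 for Hoxa5, -1.04 for Hoxa7, -5.07 for Hoxa9, -5.09 for Hoxa10 and -1.80 for Hoxa11, with standard errors of 0.26 to 0.39. It was -1.37 for Hoxc4 and -2.27 for Hoxc9 (SE 0.26 and 0.25). EOM_fiber minus TA_fiber was -3.78 for Hoxa5, -1.42 for Hoxa7, -5.01 for Hoxa9, -4.73 for Hoxa10 and -1.21 for Hoxa11, and -2.34 for Hoxc4 and -2.56 for Hoxc9, with the same standard errors. All 4 rats had the negative sign except rat 29 for Hoxa7 at the junction (0.53) and for Hoxa11 in fibre (0.01). With Hoxc4 counted by the probe set that stands for it, 5 of the 7 members had every EOM array below every TA array. That holds for 2.76% of the 10416 genes. Adjusted p under 0.05 with a lower value in EOM was reached by 8.61% of all genes at the junction and by 7.15% in fibre, and nothing is read from the members' place among them. Because nearly all EOM values lie below the array's median, the size of a difference depends on the added constant: with 1 in place of 16, Hoxa9 differed by -6.85 at the junction and -7.31 in fibre, and with 64 by -3.54 and -3.30. Its fold is therefore not fixed by these data. Whether eye muscle holds fewer cells with these transcripts or less transcript in each cell cannot be told apart in captured tissue.

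**Figure D2:**
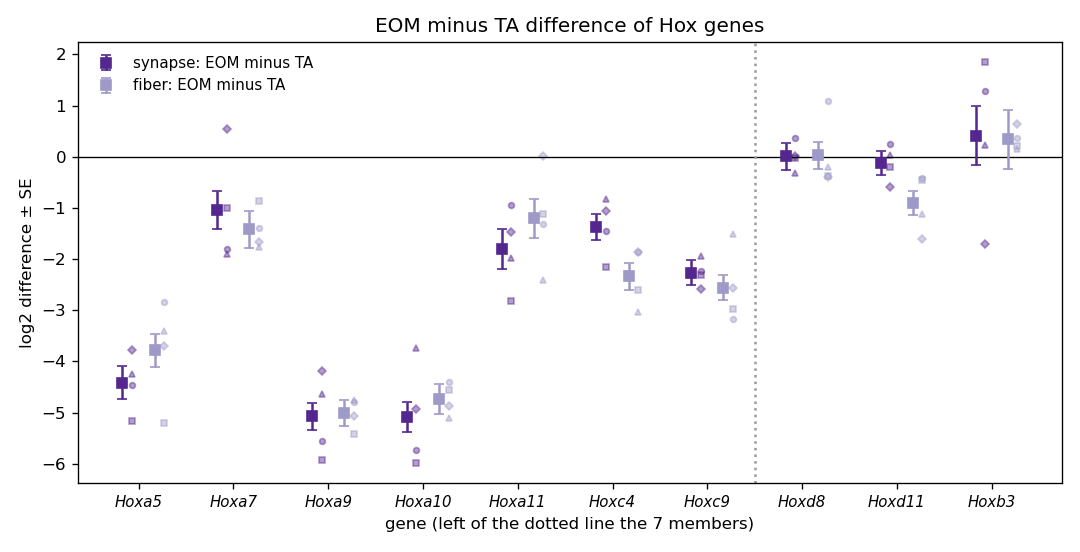
EOM minus TA difference (log2(intensity + 16), quantile normalized) of the 7 members and of the 3 other Hox genes that passed the filter, at the junction (dark) and in fibre (light). Squares with bars are the fitted difference ± SE and small symbols are the 4 rats (circle 15, square 25, triangle 27, diamond 29); the members lie between -5.09 and -1.04 and Hoxd8 at 0.01 and 0.02.

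Other Hox genes were also looked for on the array. Of 39 Hox genes looked for, 22 had a named probe set and 10 passed the filter, the 7 members and Hoxd8, Hoxd11 and Hoxb3. In the A and C clusters the nearest genes outside the set were Hoxc5 and Hoxc8, which lay above the array's median on 0 of the 16 arrays. The probe sets standing for the members did so on 7 to 9, and the second probe set of Hoxc4 on 2. The other 10 protein-coding Hox genes with a probe set, of the B and D clusters, did so on 0 to 3 arrays for any probe set. Nothing is read from this contrast, because the members were chosen as well measured and the filter uses the same count. Rank within the array is a statement about a probe set and its array, and does not set the level of 1 gene against that of another.

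**Figure D3:**
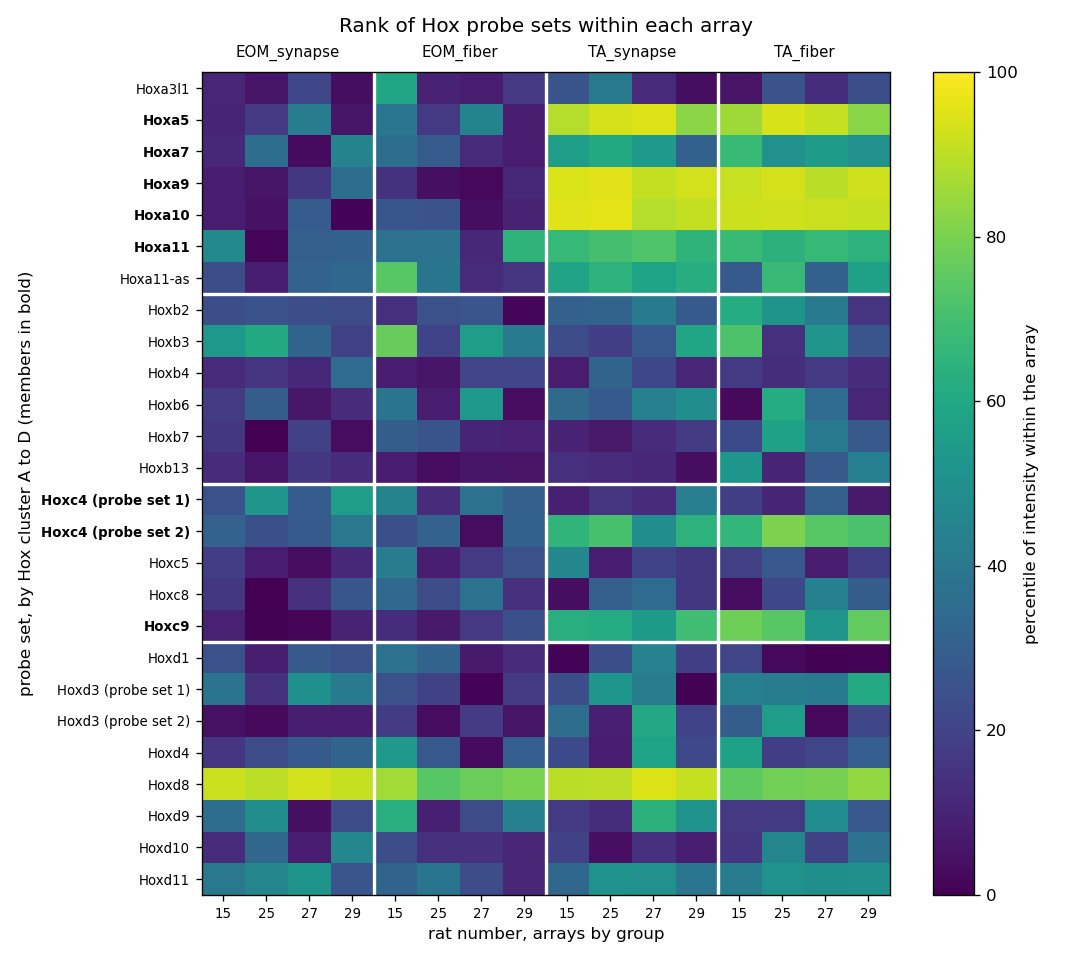
Percentile of the deposited intensity of each Hox probe set among all probe sets of its array, by array (columns, EOM_synapse, EOM_fiber, TA_synapse and TA_fiber, with rat numbers) and by gene (rows, clusters A to D, members in bold). The rows of Hoxa5, Hoxa9 and Hoxa10 run from 82.2 to 95.7 on the 8 TA arrays and from 1.15 to 45.1 on the 8 EOM arrays, while the row of Hoxd8 is at 73.9 or above on all 16.

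Hoxd8, of the D cluster, was measured on every array in both muscles and did not share the difference between them. It had 601, 476, 724 and 556 in EOM_synapse and 309, 136, 163 and 189 in EOM_fiber. In limb muscle it had 467, 492, 853 and 554 in TA_synapse and 130.0, 160.2, 167 and 246 in TA_fiber. EOM minus TA was 0.01 ± 0.27 (SE) at the junction and 0.02 ± 0.27 in fibre (limma adjusted p = 0.99 and 0.964), with 95% intervals of -0.56 to 0.58 and -0.55 to 0.60, far from the fitted differences of Hoxa5, Hoxa9 and Hoxa10. Its start region is shown beside those of the A cluster pair because its muscle pattern is so unlike theirs.
Hoxd8, chr3:80014973-80015272, plus strand: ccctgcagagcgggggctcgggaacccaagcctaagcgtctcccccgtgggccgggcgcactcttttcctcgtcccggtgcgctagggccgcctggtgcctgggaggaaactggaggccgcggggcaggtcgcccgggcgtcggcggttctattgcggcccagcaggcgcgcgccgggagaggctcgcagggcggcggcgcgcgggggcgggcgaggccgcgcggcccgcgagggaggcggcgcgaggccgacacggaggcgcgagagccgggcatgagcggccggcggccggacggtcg
None of the 4 motifs named above was in this window, so it carries no capitals. Its GC content of 79.0% and 49 CpG pairs lay at percentiles 98.8 and 99.1 of all windows, where the median window had 7 CpG pairs, against 6 to 29 in the windows of the members.

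Hoxd11, which with Hoxa11 acts in the forearm and lower leg of the mouse, was dim in every group, at 15.9 to 38.7 in EOM_synapse and 4.13 to 25.1 in EOM_fiber, and at 19.3 to 54.2 in TA_synapse and 31.4 to 52.7 in TA_fiber. It was lower in EOM_fiber than in TA_fiber by 0.90 ± 0.23 on the log2 scale (difference -0.90, adjusted p = 0.0195, limma, 4 of 4 rats), and the call was lost without EOM_fiber 27, EOM_fiber 29 or TA_fiber 29 and without rat 29 (adjusted p = 0.0646 to 0.117, limma). It was also lost with only the 8 fibre arrays fitted (adjusted p = 0.118), with an added constant of 64 (0.091) and with a trend in the prior variance (0.108). At the junction the difference was -0.13 ± 0.23 (adjusted p = 0.768). Hoxd11 lay above the array's median on 1 EOM_synapse, 0 EOM_fiber, 2 TA_synapse and 2 TA_fiber arrays. Its EOM arrays alone would not have passed the filter, so nothing is read from its call between the muscles. Hoxb3 differed by 0.41 ± 0.58 at the junction and 0.34 ± 0.58 in fibre (adjusted p = 0.682 and 0.741).

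A transcript annotated as Hoxa11-as, an antisense long noncoding RNA, was named after its values were seen. On GRCr8 its start and that of Hoxa11 lie 227 bases apart on opposite strands, and the arrays separate them only by the annotation of their probe sets. It had 13.5, 2.87, 16.3 and 24.03 in EOM_synapse and 142, 25.2, 4.19 and 6.03 in EOM_fiber. Its TA values were 54.8, 73.0, 68.0 and 68.2 in TA_synapse and 15.2, 94.4, 16.5 and 44.8 in TA_fiber. At the junction the 4 EOM arrays lay below the 4 TA arrays, with a difference of -1.51 ± 0.54 that did not pass the threshold (adjusted p = 0.0737), and did so without EOM_fiber 15 or without rat 15 (adjusted p = 0.0112 to 0.0424). It also passed with only the 8 junction arrays fitted (adjusted p = 0.00941, limma), with an added constant of 64 (0.0416) and with a trend in the prior variance (0.0494). In fibre the difference was -0.42 ± 0.54 (adjusted p = 0.657). The Hoxa11-as probe set lay above the array's median on 0 EOM_synapse, 1 EOM_fiber, 4 TA_synapse and 2 TA_fiber arrays. Its EOM arrays alone would not have passed the filter, so nothing is read from these p-values between the muscles.

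The comparison of junction with fibre inside each muscle does not use the choice of members between muscles, and it was tested for each of them by limma, two-sided, with adjustment over all 10416 genes. None of the 7 members passed in either muscle. In TA 0 of 7 were called, against 10.2% of all genes, and 2 of 7 had an unadjusted p under 0.05, against 2446 of all 10416 genes. No member had TA junction arrays entirely above or below the TA fibre arrays, against 14% of all genes. With only 7 members, these TA counts do not set the members apart from all genes. In EOM, where 0 of 7 would have passed the filter, 0 were called by limma and 0 had an unadjusted p under 0.05, against 2596 of all genes. Among all genes 10.1% were called there and 17.3% had groups that did not overlap, but nothing is read from the members' place against these shares, since their EOM values leave little room for a call.

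In limb muscle the members lay on both sides of 0. TA_synapse minus TA_fiber was 0.37 ± 0.26 for Hoxa9 (adjusted p = 0.43, higher in 4 of 4 rats), 0.30 ± 0.32 for Hoxa5 (0.647, 3 of 4), 0.20 ± 0.29 for Hoxa10 (0.748, 2 of 4) and 0.19 ± 0.39 for Hoxa11 (0.824, 3 of 4). It was -0.24 ± 0.37 for Hoxa7 (0.757, lower in 3 of 4). The C cluster pair had the more negative values. Hoxc4 differed by -0.65 ± 0.26, negative in 4 of 4 rats (adjusted p = 0.146, limma), with a 95% interval of -1.22 to -0.09. The second probe set of Hoxc4, which did not pass the filter, was not lower at the junction, with mean log2 values of 4.65 in TA_synapse and 4.53 in TA_fiber. Hoxc9 differed by -0.55 ± 0.25, negative in 3 of 4 rats (adjusted p = 0.192, limma), and passed the threshold without TA_fiber 27, the dimmest TA array for this gene (adjusted p = 0.0234). For Hoxa9 and Hoxa10, whose TA arrays are well above the array medians, the 95% intervals ran from -0.18 to 0.93 and from -0.43 to 0.83. These intervals use a spread shared by all 16 arrays, the dim EOM arrays among them, so they are no firm bound for TA. In the order of rats 15, 25, 27 and 29 the TA differences were 0.60, 0.53, 0.20 and 0.16 for Hoxa9. For Hoxa10 they were 0.64, 0.75, -0.48 and -0.11.

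In eye muscle the members lay below the median of the array in both regions, except Hoxa11 on the EOM_fiber array of rat 29. EOM_synapse minus EOM_fiber ran from -0.40 ± 0.39 for Hoxa11 to 0.31 ± 0.26 for Hoxc4, with adjusted p of 0.507 to 0.864. The difference of the junction differences, EOM minus TA, was called for 0 of 7 members, where 0.922% of all genes were called, and nothing is read from that count either, since it holds the same EOM values. An unadjusted p under 0.05 (limma) was reached by 1 of 7, Hoxc4, and by 1119 of all 10416 genes, and nothing is read from it for the same reason. For Hoxc4 the difference was 0.97 ± 0.37 (adjusted p = 0.329, limma, positive in 4 of 4 rats). For the other 6 members it lay between -0.63 and 0.38. Its sign was not fixed for Hoxa9 and Hoxc9, at -0.07 and 0.29 with the constant of 16 and at 0.46 and -0.42 with a constant of 1.

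**Figure D4:**
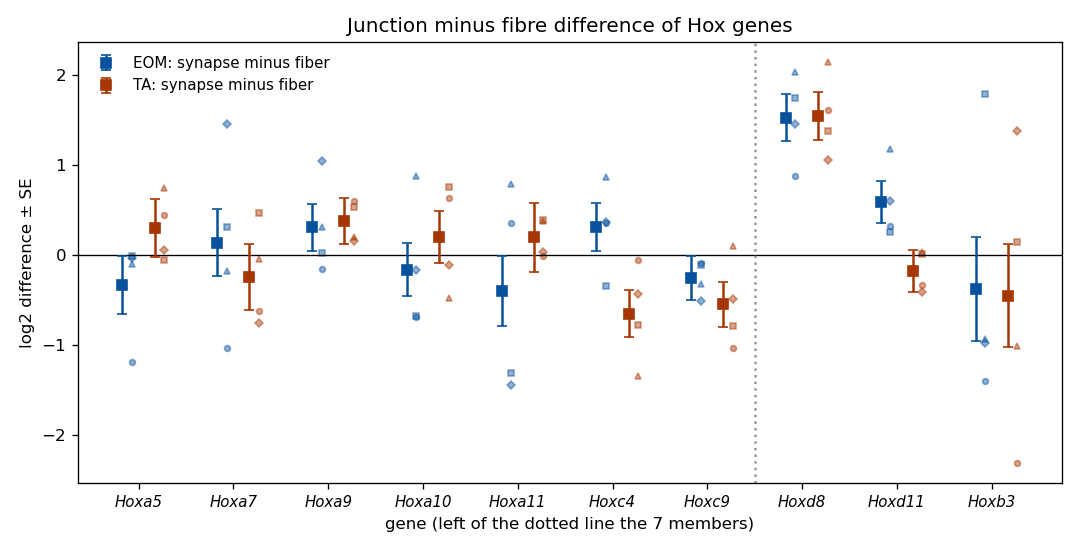
Synapse minus fiber difference (log2(intensity + 16), quantile normalized) of the 7 members and of Hoxd8, Hoxd11 and Hoxb3, in EOM (blue) and in TA (red). Squares with bars are the fitted difference ± SE and small symbols are the 4 rats (circle 15, square 25, triangle 27, diamond 29); the fitted values of the members lie between -0.65 and 0.37, and only Hoxd8 passed the threshold, at 1.53 in EOM and 1.54 in TA.

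Hoxd8 was the Hox gene that rose at the junction, and it did so in both muscles. The difference was 1.53 ± 0.27 in EOM (adjusted p = 0.00261, limma, higher in 4 of 4 rats) and 1.54 ± 0.27 in TA (adjusted p = 0.00197, 4 of 4), and in neither muscle did the arrays of junction and fibre overlap. The difference of the junction differences was -0.02 ± 0.38 (adjusted p = 0.994), with a 95% interval of -0.83 to 0.79. Hoxd11 differed by 0.59 ± 0.23 in EOM (adjusted p = 0.133, 4 of 4) and -0.18 ± 0.23 in TA (adjusted p = 0.712), and Hoxb3 by -0.38 and -0.45 ± 0.58 (adjusted p = 0.732 and 0.703).

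Markers of other cells moved with the junction and with the muscle. Of 7 tested Schwann cell markers, 6 rose at the EOM junction and 6 at the TA junction, among them S100b (2.90 ± 0.32 in EOM, 2.50 ± 0.32 in TA) and Pmp22 (2.09 ± 0.23 and 3.03 ± 0.23). The summed intensity of the 8 Schwann markers was 6897 to 11664 in EOM_synapse and 1764 to 2636 in EOM_fiber, and 3361 to 5502 in TA_synapse and 502 to 764 in TA_fiber. Of 9 tested fibroblast markers 4 rose and 1 fell at the EOM junction, and 6 rose at the TA junction. Over all genes 5.62% rose and 4.51% fell at the EOM junction, and 6.7% rose and 3.53% fell at the TA junction. The part of these cells in the Hoxd8 values was not tested.

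Between the muscles, 9 of 9 fibroblast markers were higher in EOM_fiber than in TA_fiber and 3 of 9 in EOM_synapse than in TA_synapse, none being lower. Over all genes 7.82% were higher and 8.61% lower in EOM_synapse than in TA_synapse, and 8.4% were higher and 7.15% lower in EOM_fiber than in TA_fiber. The summed intensity of the fibroblast markers was 12678 to 23926 in EOM_synapse and 4852 to 18253 in EOM_fiber, and 7977 to 19153 in TA_synapse and 1561 to 7171 in TA_fiber. Of the 10, 9 lay above the median on all 4 arrays of each EOM group, 8 in TA_synapse and 7 in TA_fiber. Macrophage markers were higher in EOM_fiber for 4 of 8, with sums of 931 to 2011 in EOM_fiber and 404 to 523 in TA_fiber. Of 8 muscle fibre markers 0 were higher and 3 lower in EOM_synapse than in TA_synapse, namely Actn3 (-2.17 ± 0.20), Des (-1.14 ± 0.29) and Acta1 (-1.11 ± 0.18), and 2 were lower in EOM_fiber than in TA_fiber, Actn3 (-0.995 ± 0.20) and Acta1 (-0.69 ± 0.18). Their summed intensity was 73970.5 to 106629 in EOM_synapse and 135047 to 185044 in EOM_fiber, and 147212 to 206894 in TA_synapse and 173277 to 349443 in TA_fiber, with all 8 above the median on every array. Of 5 satellite cell markers, which mark the stem cells of the fibre, 1 was higher in EOM_fiber than in TA_fiber and none was lower in either region. The part of cell makeup in the difference between the muscles was not tested.

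The partners of Hox proteins were measured in both muscles. Of the 9 genes of the Pbx, Meis and Pknox families, 6 passed the filter. At the junction 0 were higher and 2 lower in EOM than in TA, where 7.82% of all genes were higher and 8.61% lower. Pknox2 had 155 to 246 in EOM_synapse and 306 to 514 in TA_synapse (difference -0.86 ± 0.19, adjusted p = 0.00697), and Pknox1 had 179 to 378 in EOM_synapse and 298 to 567 in TA_synapse (-0.93 ± 0.25, adjusted p = 0.0205). In fibre 1 was higher and 2 were lower, where 8.4% of all genes were higher and 7.15% lower. Pbx3 had 171 to 962 in EOM_fiber and 32.6 to 66.1 in TA_fiber (2.45 ± 0.42, adjusted p = 0.00157). Pknox1 was lower by 0.85 ± 0.25 (difference -0.85, adjusted p = 0.0329) and Meis1 by 0.88 ± 0.28 (difference -0.88, adjusted p = 0.0466, 3 of 4 rats). The Meis1 call was lost in 16 fits that left out an array or a rat (adjusted p = 0.0519 to 0.236, limma), and that of Pknox1 in 7 such fits in fibre (0.063 to 0.187) and 5 at the junction (0.0617 to 0.139). That of Pknox2 was lost without rat 27 (adjusted p = 0.052, limma) and with arrays centred on their medians (0.0645). The median difference of the 6 was -0.41 at the junction and -0.42 in fibre, against 0.01 and 0.03 over all genes. At the junction against fibre 0 of the 6 were called in either muscle, against 10.2% of all genes in TA and 10.1% in EOM. With 6 genes, nothing is read from these counts about the list.

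Among 18 tested chromatin regulators of the Trithorax and Polycomb groups and Cdx factors, 0 were higher and 3 lower in EOM_synapse than in TA_synapse, and 1 was higher and 3 were lower in EOM_fiber than in TA_fiber. Over all genes 7.82% were higher and 8.61% lower at the junction, and 8.4% were higher and 7.15% lower in fibre. With so few genes, nothing is read from these counts about the list. Rnf2, the ubiquitin ligase of Polycomb complex 1, had 285 to 450 in EOM_synapse and 548 to 912 in TA_synapse (-1.04 ± 0.20, adjusted p = 0.00295). In fibre it had 240 to 350 in EOM_fiber and 537 to 894 in TA_fiber (-1.24 ± 0.20, adjusted p = 0.00103). Phc1, another part of that complex, was lower by 1.27 ± 0.34 at the junction and by 1.28 ± 0.34 in fibre (differences -1.27 and -1.28, adjusted p = 0.02 and 0.0196). Eed, a core part of Polycomb complex 2, differed by -0.58 ± 0.18 and -0.76 ± 0.18 (adjusted p = 0.046 and 0.0128), and Cbx6, a chromodomain protein of Polycomb complex 1, was higher in EOM fibre by 0.88 ± 0.19 (adjusted p = 0.007). The Cbx6 call was lost with only the 8 fibre arrays fitted (adjusted p = 0.0751, limma). In fits that left out an array or a rat, the call of Phc1 was lost in 8 at the junction (adjusted p up to 0.126) and 4 in fibre (up to 0.0933), and that of Eed in 16 at the junction (up to 0.196) and, in fibre, without rat 15, 25 or 27 (up to 0.0713). Those of Rnf2 were kept under every alternative run. The median of the 18 was 0.16 at the junction and 0.05 in fibre.

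None of 11 tested retinoid signalling genes was called between the muscles at the junction, where 7.82% of all genes were higher and 8.61% lower. Cyp26b1, which breaks down retinoic acid, had the difference 1.11 ± 0.37 there (adjusted p = 0.058, limma). In EOM fibre 3 of the 11 were higher and 1 lower, where 8.4% of all genes were higher and 7.15% lower. Aldh1a3 and Aldh1a2, which make retinoic acid, were higher by 1.61 ± 0.35 and 1.08 ± 0.33 (adjusted p = 0.00694 and 0.0382), and the receptor Rarb by 0.98 ± 0.24 (adjusted p = 0.0129). The receptor Rxrg was lower (-0.97 ± 0.23, adjusted p = 0.0108). At the TA junction Aldh1a3 rose by 1.97 ± 0.35 (adjusted p = 0.00238) and Rxrg fell by 0.98 ± 0.23 (difference -0.98, adjusted p = 0.0139), and at the EOM junction none of the 11 was called. Aldh1a3 was dim and scattered in TA_fiber, at 1.41 to 74.7, so the size of its differences is not fixed. Across alternatives other than leaving out an array or a rat, it ran from 1.14 to 2.93 at the TA junction. For EOM minus TA in fibre it ran from 0.87 to 2.52. Leaving out rat 29 ended the muscle call of Aldh1a3 (adjusted p = 0.0597), rat 27 that of Rxrg (0.0904), and TA_fiber 15 or rat 15 that of Rarb (0.0541 and 0.0735), all by limma. With only the 8 fibre arrays fitted, all 4 muscle calls were lost (adjusted p = 0.0578 to 0.107). That of Aldh1a2 was lost in 9 such cases (adjusted p = 0.0501 to 0.19), and that of Rxrg at the TA junction in 5 (adjusted p = 0.053 to 0.0827).

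Few other patterning genes were measured. Of 18 limb and trunk genes 5 passed the filter, and of 22 genes of head and eye muscle development 4 did. Tbx18, a T-box factor of the somites, had 63.1 to 140.4 in EOM_synapse and 64.7 to 75.7 in EOM_fiber, and 27.1 to 45.1 in TA_synapse and 3.87 to 20.6 in TA_fiber. It was higher in EOM by 1.14 ± 0.21 at the junction and by 1.502 ± 0.21 in fibre (adjusted p = 0.00198 and 0.0003), opposite in sign to the Hox members. The size of these differences is not fixed, since Tbx18 was dim in TA_fiber. Across alternatives other than leaving out an array or a rat, it ran from 0.71 to 1.43 at the junction and from 0.73 to 2.55 in fibre. Eya1, a transcriptional cofactor in muscle formation, had 900 to 1719 in EOM_synapse and 405 to 697 in TA_synapse (1.23 ± 0.22, adjusted p = 0.00201). Six4 was lower in EOM_synapse by 0.66 ± 0.16 (difference -0.66, adjusted p = 0.0128), a call lost without rat 25, 27 or 29 (adjusted p = 0.0734 to 0.107), and Msx1 was higher in EOM_fiber by 0.95 ± 0.29 (adjusted p = 0.0376), lost in 9 fits that left out an array or a rat (up to 0.202). At the TA junction Tbx18 rose by 0.94 ± 0.21 (adjusted p = 0.00998, lost without rat 15 or 25, 0.0702 and 0.06) and Eya1 fell by 0.87 ± 0.22 (difference -0.87, adjusted p = 0.0229, lost in 9 such fits, up to 0.127), both by limma. The Tbx18 difference there was 0.41 with an added constant of 64 (adjusted p = 0.109) and 1.80 with 1, and its call was also lost with a trend in the prior variance (adjusted p = 0.0568).

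The genes whose pattern over the 16 arrays was most like that of the members were found by the root mean square difference between a gene's centred log2 values and the mean centred values of the 7 members. The median over all genes was 1.60. The closest genes outside the set were LOC100911864, a long noncoding RNA by the gene table (0.48), Pgm2l1, which encodes a glucose 1,6-bisphosphate synthase (0.53), the amino acid transporter gene Slc38a4 (0.54), C13h1orf21 (0.56) and Dnajc21, which encodes a DnaJ co-chaperone (0.57). LOC100911864 had mean log2 values of 7.81 in EOM_synapse and 8.03 in EOM_fiber, and 11.62 in TA_synapse and 11.16 in TA_fiber. Of the members themselves Hoxc9 lay closest to the mean pattern (0.53, rank 2 of all genes) and Hoxa9 farthest (1.06, rank 249). The mean holds each member's own values, and the measure compares the size of a difference as well as its direction.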

How the data were processed

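The values are probe set intensities on a linear scale, as deposited by the authors, from Affymetrix rat arrays hybridised with RNA that was amplified over 2 cycles and labelled with biotin, with 600 ng of amplified RNA carried into the second cycle, per the labels' protocols. The mean intensity of an array, after its brightest and dimmest 2% of probe sets were trimmed, was 150.06 to 150.08, so the arrays had been scaled to a common level. The sources used here do not give the summarising software, and no detection calls were used.

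The members and the 17 gene lists were chosen with earlier results of these data known. The 57 control probe sets were left out, and log2(intensity + 16) values were quantile normalized, since the log2 medians of the arrays spanned 0.56. Gene names came from the array annotation, updated by gene identifier from the gene table of assembly GRCr8, which was used for names only. The annotation paired 20826 probe sets with 1 gene each and 436 with more than that, while 9780 lacked a listing. A probe set was kept when it exceeded its array's median on 4 or more arrays, and each gene was read from its brightest kept probe set by mean. The fold change of a dim gene depends on the added constant.

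Differences were tested two-sided with limma 3.58.1 (R 4.3.3). The model held a mean for each of the 4 groups plus a fixed term for the rat, leaving 9 residual degrees of freedom, to which the prior added 4.58. For each of the 5 contrasts the p-values of all genes were adjusted by Benjamini-Hochberg, with a threshold of 0.05. Errors are SE of the fitted difference, over 4 rats. Regions of 1 rat share an animal by the numbers in the titles. After subtraction of group means, the mean r was 0.112 over 24 same-rat pairs of arrays (-0.07 to 0.245, 16 over 0.1) and -0.04 over pairs of different rats. For 14 of the 16 arrays the best match was its own rat. Named genes are the members, other Hox genes that passed the filter, up to 4 called genes of each list and the 5 genes nearest to the members' pattern. Sequences were read with Python 3.11.15. Alternatives covered the block, the samples fitted, scaling, filter, pseudocount (1 and 64), probe set choice, the prior and leaving out each array and rat.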

Additional observations from a re-analysis of the deposited data

Results flagged for a closer look

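In groups of 4 arrays the value of a single array was set against the spread of the other 3, for 27 genes and 108 groups, where chance alone marks about 5% of groups, or about 5.4. Only 3 stood out. Hoxa10 in EOM_synapse was at 5.037 on the array of rat 27 (log2(intensity + 16), quantile normalized) and at 4.1078 to 4.2295 on the other 3, and all 4 lay below every TA array. Hoxd11 in TA_fiber was at 5.596 on the array of rat 15 and at 5.8748 to 5.9094 on the others. Phc1 in EOM_synapse was at 6.7221 on the array of rat 27 and at 6.0099 to 6.0932 on the others.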

How the results depend on the processing

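Across 80 results for named genes and up to 31 alternatives, 2189 of 2434 values stayed the same. Of the rest, 153 lost a call, 6 gained one, 25 moved beyond the replicate spread and 61 changed sign. For a tested result, the same means that direction and call were kept. The members' EOM minus TA differences had no call, and there it means the same sign within the replicate spread. All 25 moves were of these differences. Without the replicate block, which pairs regions of 1 rat, the calls over all genes were 903 and 831 at the TA and EOM junctions, 73 for the interaction, and 1474 and 1383 for EOM minus TA at the junction and in fibre, and 0 members were called at either junction. With the rat as a random block (correlation 0.0838) they were 1055, 1009, 103, 1685 and 1609. Calls that the unblocked fit lost were those of Rxrg in TA and in fibre, Six4, Pknox1, Meis1 and Msx1. With only the 8 arrays of a contrast, calls were lost for Eya1 and Rxrg at the TA junction, for Six4 and Eed between the muscles at the junction, and for Hoxd11, Cbx6, Eed, Phc1, Pknox1, Meis1, Msx1, Aldh1a3, Rxrg, Rarb and Aldh1a2 in fibre (adjusted p = 0.0566 to 0.184, limma). Median centring ended those of Eya1 at the TA junction, Six4, Eed and Pknox2 at the junction, and Meis1 and Msx1 in fibre (adjusted p = 0.0535 to 0.221).

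Counts over all genes that moved by over 1.5 times were 606 for the TA junction and 582 for EOM minus TA in fibre with only the 8 arrays of the contrast (1066 and 1620 as reported), and 689 for the EOM junction and 1139 for EOM minus TA at the junction with arrays centred on their medians (1055 and 1712). The interaction, with 96 calls, gave 56 with median centring, 46 with pseudocount 1, 218 with pseudocount 64 and 204 with a trend in the prior. Median centring left 547 higher and 142 lower calls at the EOM junction, against 585 and 470 as reported. It moved the median of all genes from -0.02 to 0.10 in the interaction, and values as deposited put it at 0.11 for EOM minus TA in fibre.

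Leaving out an array or a rat gave 602 to 1210 calls at the TA junction, 491 to 1146 at the EOM junction, 23 to 105 for the interaction, 947 to 1940 and 976 to 1717 for EOM minus TA at the junction and in fibre, and 0 to 1 members at the TA junction, the 1 being Hoxc9. Signs changed for differences near 0. With median centring the interaction was 0.046 for Hoxa9 and 0.038 for Hoxd8, and Hoxd8 in fibre was -0.0089. With pseudocount 1 the interaction was 0.46 for Hoxa9 and -0.42 for Hoxc9, and as deposited it was -0.048 for Hoxb3. With arrays or rats left out, the TA junction difference spanned -0.47 to 0.0198 for Hoxa7, -0.0041 to 0.46 for Hoxa10, -1.06 to 0.17 for Hoxb3 and -0.26 to 0.0024 for Hoxd11. The EOM junction difference spanned -0.30 to 0.53 for Hoxa7, -0.52 to 0.031 for Hoxa10, -0.82 to 0.0022 for Hoxa11 and -0.95 to 0.23 for Hoxa11-as. The interaction spanned -0.23 to 0.72 for Hoxa7, -0.39 to 0.16 for Hoxa9, -0.55 to 0.88 for Hoxb3 and -0.19 to 0.29 for Hoxd8. EOM minus TA spanned -0.21 to 1.13 for Hoxb3, -0.13 to 0.20 for Hoxd8 and -0.26 to 0.029 for Hoxd11 at the junction, and -1.30 to 0.032 for Hoxa11-as and -0.33 to 0.20 for Hoxd8 in fibre. The cause of each change was not tested.

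The junction call of Hoxd8 held under every alternative run, with adjusted p up to 0.0276 in EOM and 0.0227 in TA. With 4 rats and members mostly below the array median in eye muscle, small differences there were not detectable.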

Other observations

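Other cell type markers also differed between regions. Of 9 tested endothelial markers 4 fell at the EOM junction and 3 at the TA junction, and 2 were higher in EOM_fiber than in TA_fiber. Of 9 markers of pericytes and smooth muscle 1 rose and 3 fell at the EOM junction, and 1 rose and 2 fell at the TA junction, Mcam being the one that rose in both (1.43 ± 0.29 and 1.84 ± 0.29). Of 5 satellite cell markers only Spry1 was called at the junctions, and it rose at both (2.61 ± 0.18 and 2.67 ± 0.18). Without a call, the mean log2 values of Cdh15 and Chrdl2 were lower at both junctions, and those of Calcr and Vcam1 higher. The median difference of the 5 was 0.02 in EOM and 0.42 in TA, so Spry1 does not stand for the list. Of 3 tested neuron and axon markers 2, Gap43 and Nefm, were higher in EOM than in TA at the junction and in fibre. None of 3 tested adipocyte markers was called in any contrast. Over all genes 5.62% rose and 4.51% fell at the EOM junction, and 6.7% rose and 3.53% fell at the TA junction. Between the muscles 7.82% of all genes were higher in EOM at the junction and 8.4% in fibre. All calls are by limma at an adjusted p under 0.05.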
